A study of Homo sapiens with 12 samples.

Results

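The sodium-potassium and calcium pump ATPases described here were 7 genes, chosen by symbol: ATP1B1 and ATP1B3 of the sodium-potassium pump, ATP2A2 and ATP2A3 of the endoplasmic reticulum calcium pumps, ATP2B1 and ATP2B4 of the plasma membrane calcium pumps, and ATP2C1 of the Golgi. All 7 were found among the 56832 symbols of each count file, and all 7 passed the filter on low counts that left 14431 genes to test. RNA sequencing measured total RNA of cells labelled SW1736, an established anaplastic thyroid cancer line, which carried the vector pCDH-TRB for thyroid hormone receptor beta (TRB cells) or the empty vector pCDH-EV (EV cells). Every culture was starved of hormone for 24 h and then received 10 nM T3, the active thyroid hormone, or its NaOH vehicle for 24 h. The 4 combinations of vector and treatment had 3 libraries each, and the labels describe expression of the receptor as stable without saying whether the cells were a clone or a pool. The labels do not say that replicates were separate cultures, so p-values measure only the spread between these libraries, which may be technical.

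Cells keep sodium low and potassium high inside with the sodium-potassium ATPase, which pairs a catalytic alpha subunit with a glycosylated beta subunit that the alpha subunit needs to leave the endoplasmic reticulum. Calcium is kept low in the cytosol by separate P-type ATPases. SERCA pumps load the endoplasmic reticulum, PMCA pumps expel calcium across the plasma membrane, and SPCA pumps load the Golgi with calcium and manganese. Thyroid hormone is known to raise sodium-potassium ATPase in several tissues and SERCA2, the product of ATP2A2, in heart.

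Promoter windows from RefSeq on GRCh38.p14, which run from 250 bases before to 50 bases after an annotated start, were found for 6 of the 7 genes, 10 windows in all. ATP2A3 had no entry. The windows are shown for ATP1B1 and ATP2A2, the genes that passed as higher with T3 in TRB cells over all 12 libraries. ATP1B3, the other beta subunit gene, did not pass and is also shown. Each line gives only the 250 bases before the start on the plus strand, 5′ to 3′, and capitals mark the letters GGGCGG (a GC box) and CCAAT on either strand.
ATP1B1, chr1:169106440-169106689: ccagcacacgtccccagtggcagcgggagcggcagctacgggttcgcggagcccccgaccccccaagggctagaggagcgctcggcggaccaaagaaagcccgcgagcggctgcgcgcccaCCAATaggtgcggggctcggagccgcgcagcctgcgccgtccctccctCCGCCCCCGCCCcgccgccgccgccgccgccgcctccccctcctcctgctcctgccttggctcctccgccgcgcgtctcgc
ATP2A2, chr12:110280997-110281246: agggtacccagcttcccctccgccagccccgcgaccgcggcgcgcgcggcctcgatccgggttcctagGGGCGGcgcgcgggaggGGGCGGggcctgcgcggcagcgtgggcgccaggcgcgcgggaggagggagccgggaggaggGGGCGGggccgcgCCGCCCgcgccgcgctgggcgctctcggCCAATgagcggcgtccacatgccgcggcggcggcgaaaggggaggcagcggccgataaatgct
ATP1B3, chr3:141876393-141876642: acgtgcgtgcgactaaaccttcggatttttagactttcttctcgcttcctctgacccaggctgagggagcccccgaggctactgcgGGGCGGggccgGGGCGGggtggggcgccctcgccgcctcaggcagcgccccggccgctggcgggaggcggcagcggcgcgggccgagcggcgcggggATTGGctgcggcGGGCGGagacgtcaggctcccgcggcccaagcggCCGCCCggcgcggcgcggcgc
The ATP1B1 window held 2 GC boxes and 1 CCAAT, and the ATP2A2 window, the second of the windows listed for that gene, held 4 GC boxes and 1 CCAAT. The first ATP2A2 window, chr12:110280366-110280665, held 0 of either. The ATP1B3 window also held 4 GC boxes and 1 CCAAT. Over 35116 windows of 300 bases, searched on both strands, 45% held GGGCGG and 34.6% held CCAAT. The core motif AGGTCA of thyroid hormone response elements was in 13.8% of all windows and its direct repeat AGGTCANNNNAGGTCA in 0.0199%. Neither was in any of the 10 windows of these genes.

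Counts within genes ranged from 3819306 to 13086717 per library. Not unique alignments made up 33.08% to 66.32% of a file in EV cells with vehicle and 69.6% to 91.95% with T3, without overlap. In TRB cells with T3 they made up 19.03% to 66.62%, below every EV library with T3. The T3 contrast in EV cells and the contrast between vectors with T3 carry these differences as well. So does the difference of T3 responses between TRB and EV cells. THRB, the supplied receptor gene, stood at 12.3 to 18.3 CPM (counts scaled to a library of 1000000) in the 6 EV libraries and at 79.8 to 322 CPM in the 6 TRB libraries, without overlap. In TRB cells THRB stood at 80.2, 79.8 and 80.4 CPM with vehicle and at 322, 190.3 and 297 with T3. It was 3.37-fold higher with T3 over 12 libraries (edgeR adjusted p = 0.000434), and 3.99-fold without TRB with T3 replicate 2 (adjusted p = 2.1e-07). In EV cells it was 1.02-fold. T3 responses in TRB cells were thus measured at a higher level of receptor RNA, and the part of that level in them was not tested. KLF9, a known T3-responsive gene, went from 13.1 to 14.6 CPM in EV cells with vehicle to 123 to 169 CPM with T3, and from 7.93 to 10.9 CPM in TRB cells with vehicle to 104 to 257 CPM with T3. Of the markers checked for the labelled line, the epithelial genes KRT8, KRT18, KRT19, EPCAM and CDH1 were abundant, with a summed level of 2028 to 5013 CPM. PAX8 of the thyroid lineage stood at 0.72 to 6.98 CPM, while FOXE1 was at 0 counts in all 12 libraries and TG did not exceed 5 counts in any. CDH2 was at 0 counts in all 12 libraries and VIM, often abundant in anaplastic lines, did not exceed 18 counts. The levels of VIM and CDH2 go against the labelled line, while those of FOXE1 and TG were not taken as evidence either way. The identity of the line was not tested. Of the leukocyte markers, CD3E was at 0 counts, PTPRC and CD68 did not exceed 4, and LYZ stood at a median of 1195 CPM.

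TRB with T3 replicate 2 stood apart from the other libraries. It had 17833 genes with a count where the others had 19030 to 22881, and its scaling factor by trimmed mean of M-values (TMM) was 0.786 where the others lay between 0.995 and 1.054. Its deviation from the mean of the other libraries of its group followed the GC content of the genes. The Spearman correlation was -0.88 across 12130 genes, which are not independent replicates. Among the other libraries this correlation lay between -0.81 and 0.78, the extremes being replicates 2 and 3 of EV with T3. Replicate 2 was negative in every group, at -0.64 in EV with vehicle and -0.24 in TRB with vehicle. Replicate 3 of TRB with vehicle was also negative, at -0.23. Replicates 1 and 3 of TRB with T3 were compared with each other only, at -0.36 and 0.36. The remaining libraries were positive. The 7 pump genes deviated unequally in that library. Relative to the mean of replicates 1 and 3 on the log2 scale, ATP2B1 (39.1% GC) stood 1.72 higher, ATP1B3 (42.7% GC) 1.26 higher and ATP2C1 (41.4% GC) 0.91 higher. ATP2A3, the gene with the highest GC content at 63.3%, had a deviation of -3.25. ATP1B1, ATP2A2 and ATP2B4 all had 47% GC and deviations of 1.07, 0.05 and -0.42. The T3 responses in TRB cells are therefore given for 12 libraries and again for the 11 without TRB with T3 replicate 2. The part of GC content in the results was not tested beyond the refits with GC offsets given below, which remove a smooth trend with GC content from each library.

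**Figure D1:**
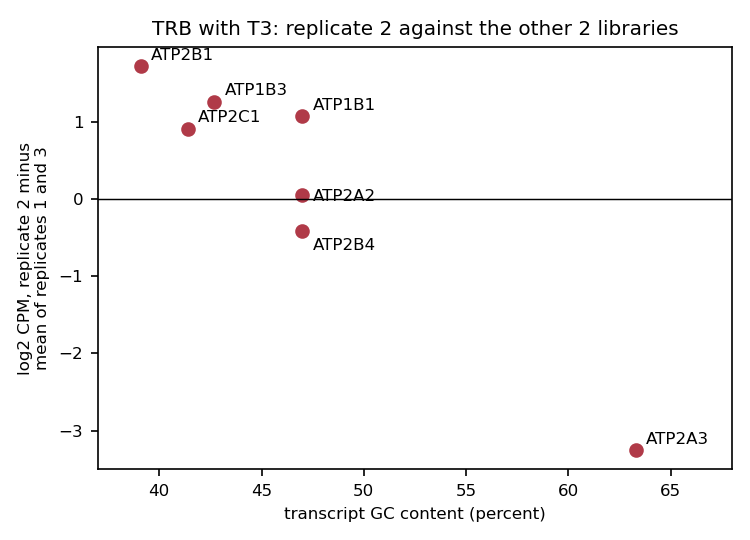
Deviation of TRB with T3 replicate 2 from the mean of replicates 1 and 3 (vertical axis, log2 CPM), one point per pump gene. The horizontal axis is the median GC content of the gene's annotated transcripts, in percent. ATP2B1 sits highest at 1.72, ATP2A3 lowest at -3.25, and ATP2A2 lies at 0.05.

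Per kilobase of annotated exon, ATP1B1 was the most abundant of the 7 genes in EV cells with vehicle, at 389 ± 19.2 CPM per kb (SD, n = 3). ATP2A2 followed at 39.4 ± 2.12, ATP2B1 at 18.7 ± 2.3, ATP2C1 at 12.6 ± 1.04, ATP1B3 at 11.6 ± 1.38, ATP2B4 at 5.02 ± 0.24 and ATP2A3 at 4.45 ± 0.748 CPM per kb. The ranges of ATP2C1 and ATP1B3 overlapped, as did those of ATP2B4 and ATP2A3. The other neighbours in this order did not overlap. The lengths are unions of all annotated exons, 13745 bases for ATP2A2 and 2962 for ATP1B1, so a gene with many alternative exons reads low on this scale. In the 2 remaining TRB libraries with T3, ATP1B1 stood at 757 ± 46.3 and ATP2A2 at 88.6 ± 0.322 CPM per kb (SD, n = 2). The other 5 genes lay between 3.89 and 12.6 CPM per kb there, and ATP2B1 at 9.31 ± 0.592 lay below ATP1B3 at 11.2 ± 1.96 and ATP2C1 at 10 ± 0.231, where in EV cells with vehicle it lay above both.

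ATP1B1, at chr1:169105697-169132722 on the plus strand (ENSG00000143153.12, GRCh38), encodes the beta-1 subunit of the sodium-potassium pump. It stood at 1138, 1216 and 1105 CPM in EV cells with vehicle and at 1406, 1517 and 1077 CPM in EV cells with T3. In TRB cells it stood at 799.9, 1043 and 984 CPM with vehicle and at 2146, 4708 and 2340.3 CPM with T3, the middle value being replicate 2. All 3 TRB libraries with T3 lay above all 9 others, and the EV groups overlapped. T3 raised ATP1B1 by 3.25-fold in TRB cells over 12 libraries, a log2 fold change of 1.7 (SE 0.29, edgeR adjusted p = 0.00285). Without replicate 2 the rise was 2.46-fold, a log2 fold change of 1.30 (SE 0.154, edgeR adjusted p = 3.37e-05), so the size over 12 libraries rests in part on that library. Fitted on the TRB groups alone, 1.69 missed the threshold (edgeR adjusted p = 0.054).

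In EV cells the log2 fold change of ATP1B1 with T3 was 0.21 in both fits (SE 0.283, edgeR adjusted p = 0.94 over 12 libraries, and SE 0.14, adjusted p = 0.327 over 11). The log2 T3 response in TRB cells exceeded that in EV cells by 1.49 over 12 libraries (SE 0.402, edgeR adjusted p = 0.0876) and by 1.09 over 11 (SE 0.209, edgeR adjusted p = 0.00446). Only the latter passed. Between vectors with T3, ATP1B1 was 2.30-fold higher in TRB cells (edgeR adjusted p = 0.0315) and 1.75-fold higher without replicate 2 (adjusted p = 0.00264). Over 12 libraries that call was lost when any 1 of the EV libraries with T3 was left out, with an edgeR adjusted p of 0.0884, 0.0561 and 0.116 without replicates 1, 2 and 3, and at 0.333 in the compared groups alone. Reads over 192 bases, 6.48% of the ATP1B1 exons, overlap exons of NME7 on the opposite strand, and the strand setting of the counting is not given in the sources used here.

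ATP1B3, at chr3:141876124-141926514 on the plus strand, encodes the beta-3 subunit. It stood at 26.1, 33 and 31 CPM in EV cells with vehicle, 29.9, 26 and 26.6 with T3, 31.8, 27.5 and 28.6 in TRB cells with vehicle, and 32.6, 69.3 and 25.5 with T3. Apart from the 69.3 CPM of TRB with T3 replicate 2, all 11 libraries lay between 25.5 and 33 CPM. The log2 fold change with T3 in TRB cells was 0.53 over 12 libraries (SE 0.314, edgeR adjusted p = 0.27) and 0.04 over 11 (SE 0.141, edgeR adjusted p = 0.841). No contrast of ATP1B3 passed in either fit. ATP1B1 made up 95.6% to 97.1% of the summed level per length of the beta genes ATP1B1 and ATP1B3 in TRB cells with vehicle and 98.3% to 98.8% with T3.

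ATP2A2, at chr12:110280756-110351093 on the plus strand (ENSG00000174437.16), encodes SERCA2, the widely expressed calcium pump of the endoplasmic reticulum. It stood at 509.7, 567 and 549 CPM in EV cells with vehicle and at 649, 653 and 630.5 with T3. In TRB cells it stood at 479.6, 505 and 530.4 CPM with vehicle and at 1221, 1262 and 1215 with T3. The T3 libraries lay above the vehicle libraries in both cell types, and replicate 2 did not stand apart for this gene. In TRB cells T3 raised ATP2A2 by 2.44-fold, a log2 fold change of 1.29 (SE 0.127, edgeR adjusted p = 8.9e-05), and by 2.49-fold, 1.32 (SE 0.0917, edgeR adjusted p = 3.18e-07), over 11 libraries. Of the 7 genes it was the one that passed in this contrast under all 25 alternative settings run.

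In EV cells the difference with T3 was 1.19-fold, 0.25 on the log2 scale in both fits, and it missed the threshold in edgeR (adjusted p = 0.879 over 12 libraries, and SE 0.0835, adjusted p = 0.083 over 11). DESeq2 called it over 12 libraries at 0.29 (adjusted p = 0.0342), and edgeR called it over 11 libraries with GC offsets at 0.33 (SE 0.0667, adjusted p = 0.00293). The log2 T3 response in TRB cells exceeded that in EV cells by 1.04 over 12 libraries (SE 0.177, edgeR adjusted p = 0.0132) and by 1.07 over 11 libraries (SE 0.124, edgeR adjusted p = 0.000141). Over 12 libraries that difference lost its call, at an edgeR adjusted p of 0.0504 to 0.0623, when replicate 2 or 3 of the EV vehicle libraries, replicate 1 of the EV libraries with T3, or any 1 of the TRB vehicle libraries was left out, and at 0.131 with no count filter. With T3, ATP2A2 was 1.91-fold higher in TRB than in EV cells (edgeR adjusted p = 0.0017) and 1.97-fold higher over 11 libraries (adjusted p = 1.08e-05), against 0.148 in the compared groups alone over 12.

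ATP2A3, at chr17:3923870-3964464 on the minus strand, encodes SERCA3, a reticulum pump with a narrower tissue range. It stood at 26.9, 28.6 and 36.6 CPM in EV cells with vehicle and 33.8, 19.1 and 38.7 with T3. In TRB cells it stood at 41.3, 42.2 and 42.1 CPM with vehicle and at 26.8, 2.7 and 28.4 with T3, where the 2.7 CPM of replicate 2 rest on 15 counts. All TRB libraries with T3 lay below all TRB libraries with vehicle, with or without replicate 2. The log2 fold change was -1.10 over 12 libraries (SE 0.594, edgeR adjusted p = 0.232) and -0.56 over 11 (SE 0.219, edgeR adjusted p = 0.07), so neither passed. With GC offsets the log2 level of ATP2A3 fell by 0.67 over 12 libraries (SE 0.141, edgeR adjusted p = 0.00257) and by 0.65 over 11 (SE 0.115, edgeR adjusted p = 0.000171). In EV cells with T3 the value was -0.02 over 12 libraries (adjusted p = 0.995) and -0.36 over 11 with GC offsets (SE 0.113, edgeR adjusted p = 0.0383). With vehicle, TRB cells had 1.36-fold more ATP2A3 than EV cells without overlap, a log2 difference of 0.45 (SE 0.587, edgeR adjusted p = 1 over 12 libraries, and SE 0.194, 0.394 over 11), which passed only in the vehicle groups alone (0.46, edgeR adjusted p = 0.0282).

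The balance of the SERCA genes differed between T3 and vehicle in TRB cells without overlap. ATP2A2 made up 85.4%, 85.7% and 86.3% of the summed level per length of ATP2A2 and ATP2A3 with vehicle and 95.8%, 99.6% and 95.6% with T3. In EV cells the share was 90.5%, 90.9% and 88.3% with vehicle and 90.6%, 94.5% and 89.1% with T3, and these groups overlapped. Both genes enter the share, so it carries the rise of ATP2A2 and the lower ATP2A3 values together.

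**Figure D2:**
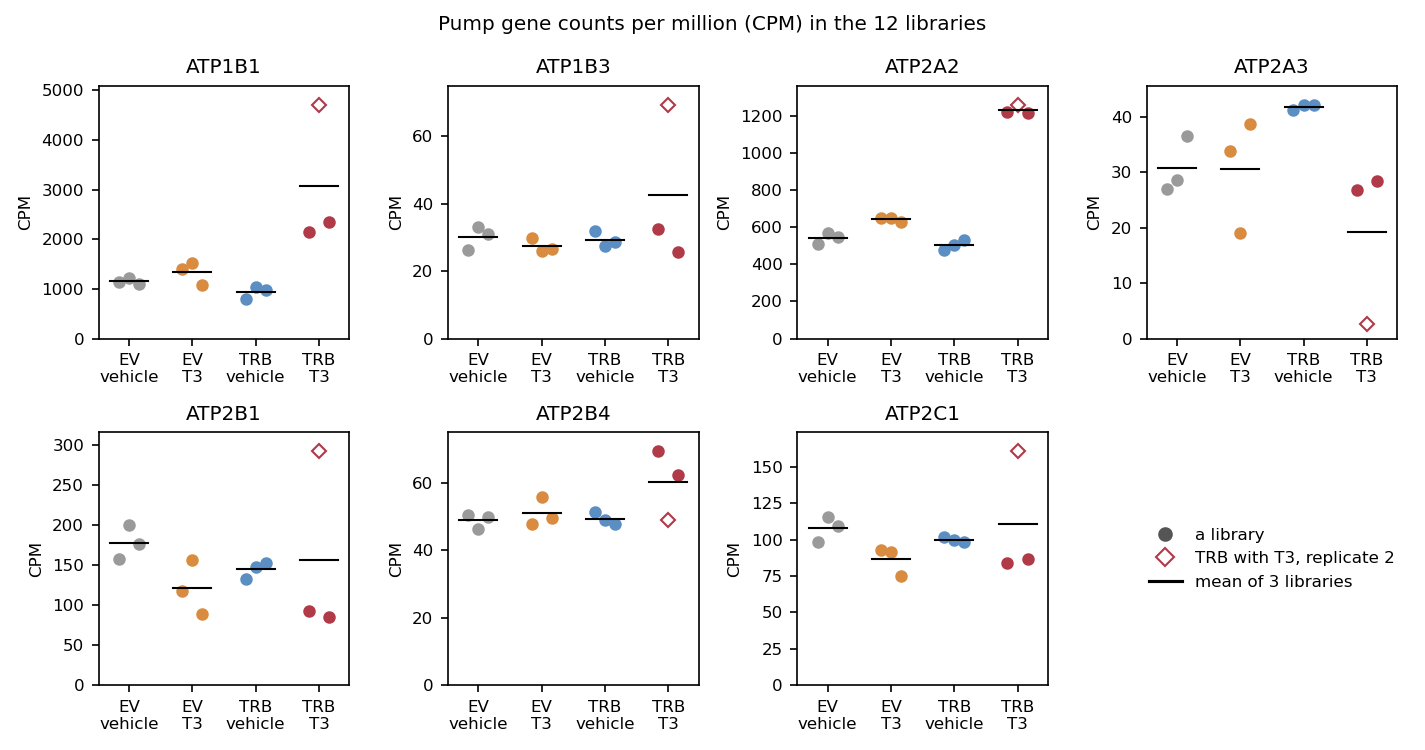
CPM (vertical axes, linear from 0) of the 7 pump genes in the 12 libraries by group; a point is a library, a line the mean of 3 libraries, and the open diamond TRB with T3 replicate 2. The TRB libraries with T3 lie above all others for ATP1B1 (2146 to 4708 CPM) and ATP2A2 (1215 to 1262 CPM), and the open diamond lies apart from its group for every gene but ATP2A2.

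ATP2B1, at chr12:89588049-89709300 on the minus strand, encodes PMCA1, the housekeeping pump that expels calcium. It stood at 157, 200.1 and 176 CPM in EV cells with vehicle, 117, 156 and 89.3 with T3, 132, 148 and 153 in TRB cells with vehicle, and 92.4, 292 and 84.4 with T3. In EV cells the T3 libraries lay below the vehicle libraries. In TRB cells the same held for replicates 1 and 3, while replicate 2 was the highest of all 12 libraries. The direction in TRB cells therefore turned on that library: the log2 fold change was 0.11 over 12 libraries (SE 0.416, edgeR adjusted p = 0.87), whereas over 11 ATP2B1 fell by 0.66 (SE 0.194, edgeR adjusted p = 0.0197), 1.58-fold lower. With GC offsets it fell by 0.59 over all 12 libraries (SE 0.0888, edgeR adjusted p = 0.000248) and by 0.68 over 11 (SE 0.0677, edgeR adjusted p = 4.54e-07).

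In EV cells the log2 fold change of ATP2B1 with T3 was -0.55 over 12 libraries (SE 0.418, edgeR adjusted p = 0.935) and -0.54 over 11 (SE 0.172, adjusted p = 0.0728), and GC offsets brought it to -0.16 over 11 (SE 0.0608, adjusted p = 0.0818). The responses of TRB and EV cells differed by 0.67 over 12 libraries (SE 0.589, edgeR adjusted p = 0.481) and by -0.12 over 11 (SE 0.257, edgeR adjusted p = 0.791). With GC offsets over 11 libraries the difference was -0.52 and passed (edgeR adjusted p = 0.000419). An 82 base overlap with the antisense gene ATP2B1-AS1 covers 0.86% of the ATP2B1 exons.

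ATP2B4, at chr1:203626561-203744081 on the plus strand, encodes PMCA4, the other plasma membrane pump tested. It stood at 50.4, 46.1 and 49.8 CPM in EV cells with vehicle, 47.7, 55.6 and 49.6 with T3, 51.2, 48.9 and 47.6 in TRB cells with vehicle, and 69.3, 48.9 and 62.1 with T3. Replicates 1 and 3 of TRB with T3 were the highest 2 libraries of the 12, and replicate 2 lay within the vehicle range. The log2 fold change with T3 in TRB cells was 0.29 over 12 libraries (SE 0.166, edgeR adjusted p = 0.258). Over 11 libraries ATP2B4 rose by 0.47, 1.38-fold (SE 0.113, edgeR adjusted p = 0.00676), and with GC offsets by 0.40 (SE 0.0822, edgeR adjusted p = 0.000634). With GC offsets over 12 libraries it was 0.17 and did not pass (SE 0.176, edgeR adjusted p = 0.456). With T3 it was 1.34-fold higher in TRB than in EV cells over 11 libraries (edgeR adjusted p = 0.0207) and 1.18-fold over 12 (adjusted p = 0.357). Its response in TRB minus EV cells was 0.39 over 11 libraries and did not pass (SE 0.155, edgeR adjusted p = 0.109).

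The PMCA genes thus moved in opposite directions in the TRB libraries other than replicate 2. ATP2B4 made up 27.5%, 24.3% and 23.3% of the summed level per length of ATP2B1 and ATP2B4 in TRB cells with vehicle and 42.3%, 14.1% and 41.8% with T3. Replicate 2, at 14.1%, was the lowest of all 12 libraries while the remaining 2 were the highest. In EV cells the share was 23.9%, 18.4% and 21.7% with vehicle and 28.4%, 25.9% and 35.2% with T3, without overlap.

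**Figure D3:**
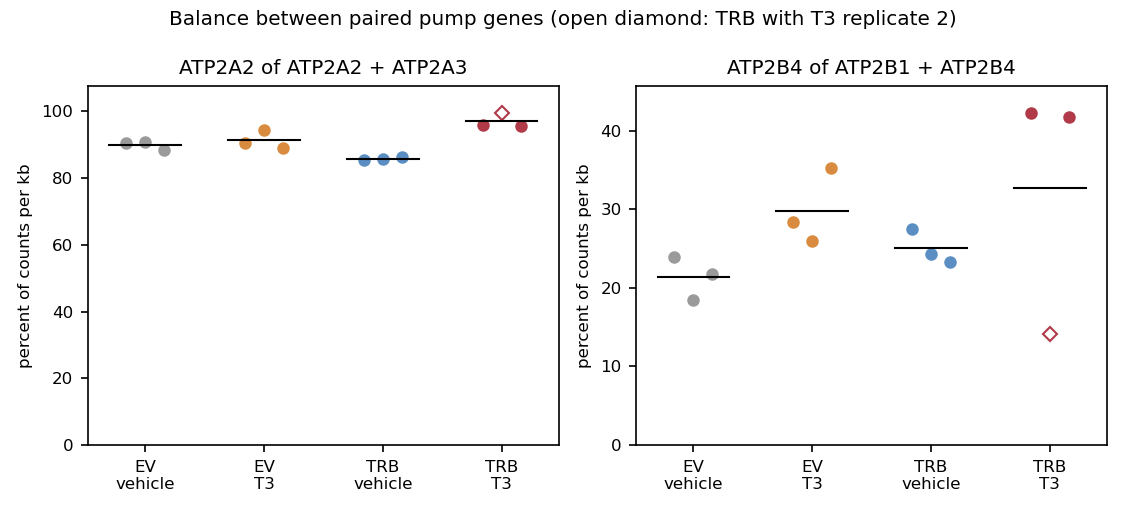
Percent shares of ATP2A2 among the SERCA genes and of ATP2B4 among the PMCA genes, from counts per kilobase of exon (vertical axes, from 0) in each library by group; lines are means of 3 libraries and the open diamond is TRB with T3 replicate 2. TRB libraries with T3 reach an ATP2A2 share of 95.6% to 99.6% and, without replicate 2, an ATP2B4 share of 41.8% to 42.3%.

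ATP2C1, at chr3:130850595-131016712 on the plus strand, encodes SPCA1, a Golgi pump. It stood at 98.2, 116 and 109.8 CPM in EV cells with vehicle, 93.2, 91.8 and 75.2 with T3, 102, 100 and 98.5 in TRB cells with vehicle, and 84.3, 161 and 87.1 with T3. As for ATP2B1, T3 libraries lay below vehicle libraries in EV cells, and in TRB cells apart from replicate 2. The log2 fold change in TRB cells was 0.14 over 12 libraries (SE 0.238, edgeR adjusted p = 0.695) and -0.18 over 11 (SE 0.118, edgeR adjusted p = 0.284). In EV cells it was -0.31 in both fits (edgeR adjusted p = 0.935 over 12 libraries and 0.0907 over 11), and 0 with GC offsets over 11 (adjusted p = 0.999). With GC offsets ATP2C1 in TRB cells gave -0.32 over 12 libraries (edgeR adjusted p = 0.0481) and -0.22 over 11 (adjusted p = 0.059). Exons of ASTE1 on the opposite strand overlap 188 bases, 2.20% of the ATP2C1 exons.

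Counted over the 7 genes, 2 passed with T3 in TRB cells over 12 libraries, ATP1B1 and ATP2A2, both higher, where 14.7% of all 14431 genes tested passed. Over 11 libraries 4 passed, 3 higher and 1 lower, where 33.3% of 14825 genes passed. The median log2 fold change of the 7 genes was 0.29 over 12 libraries and 0.04 over 11, beside 0.01 and -0.01 over all genes. With T3 in EV cells edgeR called 0 of the 7 over 12 libraries, where 0.229% of all genes passed. At an unadjusted p under 0.05 the count was also 0, and DESeq2 called 1. Over 11 libraries edgeR again called 0, with 3 at an unadjusted p under 0.05, where 7.33% of genes passed. With GC offsets over 11 libraries, 5 passed in TRB cells beside 55.3% of 12306 genes, and 2 in EV cells beside 17.8%.

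Between vectors with vehicle, edgeR called 0 of the 7 genes over 12 libraries, where 0.0208% of all genes passed, with 0 at an unadjusted p under 0.05 and 0 in DESeq2. Over 11 libraries it called 0, with 1 at an unadjusted p under 0.05, where 0.0742% of genes passed. Between vectors with T3, 2 passed over 12 libraries (6.68% of all genes) and 3 over 11 (19.7%). Comparing TRB cells under T3 with EV cells under vehicle, 2 passed over 12 libraries (10.6% of all genes) and 4 over 11 (33.7%). In that last contrast ATP1B1 was 2.66-fold higher over 12 libraries (edgeR adjusted p = 0.00963) and 2.03-fold over 11 (0.000271), but it missed the threshold over 12 when fitted on the compared groups alone (edgeR adjusted p = 0.0939). ATP2A2 was 2.28-fold higher over 12 libraries (edgeR adjusted p = 0.000176) and 2.35-fold over 11 (6.99e-07). The T3 response differed between TRB and EV cells for 1 gene over 12 libraries (2.59% of all genes), ATP2A2, and for 2 over 11 (15.2%), ATP1B1 and ATP2A2. With GC offsets over 11 libraries the response differed for 3 of the 7 beside 33.7% of genes, the third being ATP2B1. These contrasts share libraries, so their counts are not independent of each other.

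**Figure D4:**
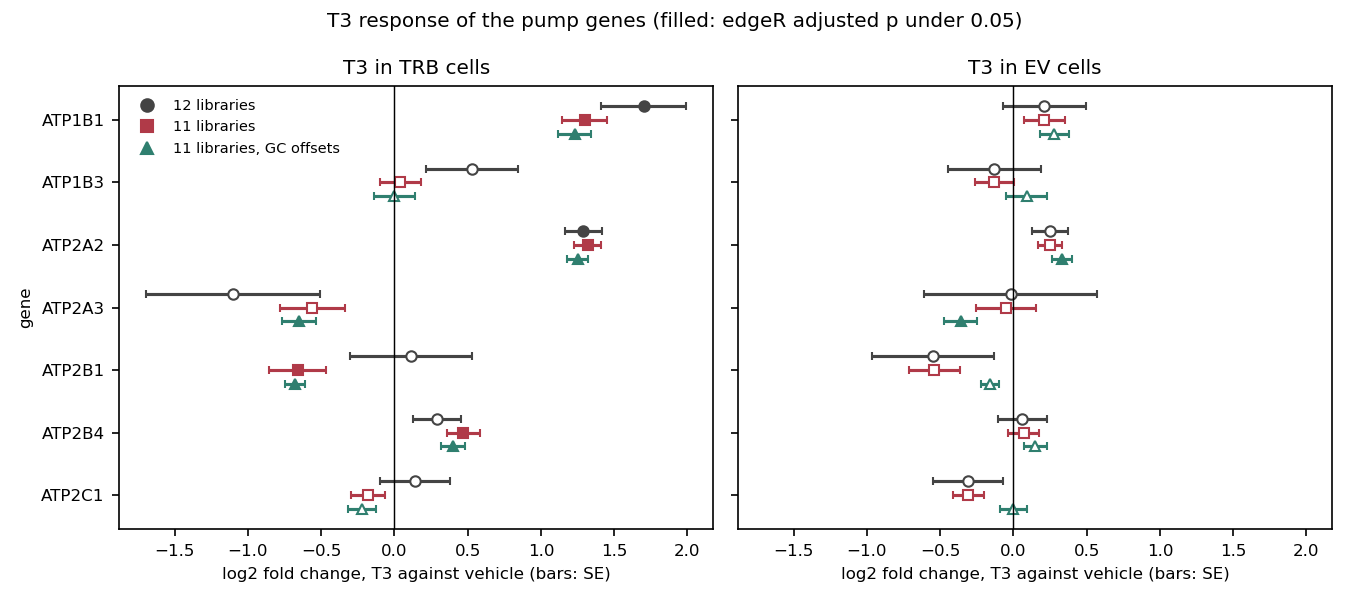
Log2 fold change of T3 against vehicle (horizontal axis) for the 7 pump genes in TRB cells (left) and EV cells (right), over 12 libraries, over 11 libraries, and over 11 libraries with GC offsets; bars are standard errors and filled symbols passed an edgeR adjusted p of 0.05. ATP1B1 (1.7, 1.30 and 1.23) and ATP2A2 (1.29, 1.32 and 1.25) are filled in all 3 fits in TRB cells, and ATP2B1 turns from 0.11 to -0.66 once replicate 2 of TRB with T3 is left out.

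The genes around the pumps were read from 4 lists chosen by what the genes do. Of 21 pump partners, meaning further subunits and paralogs, 4 passed the filter on low counts: ATP2A1, ATP2C2, FXYD3 and FXYD5. With T3 in TRB cells 0 of the 4 passed in edgeR over 12 libraries, also 0 at an unadjusted p under 0.05 and with a median log2 fold change of -0.53. Over 11 libraries FXYD3, a small modulator of the sodium-potassium pump, rose by 0.51 (edgeR adjusted p = 0.0189). FXYD3 stood at 51.6, 43.3 and 48.1 CPM with vehicle and at 65.6, 13.7 and 65.5 with T3, replicate 2 being the lowest library.

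Of 12 tested pump regulators, 4 rose and 0 fell with T3 in TRB cells over 12 libraries, and 5 rose and 1 fell over 11. These are 33.3% and 50% of the list, beside 14.7% and 33.3% of all genes. SGK1, a hormone-induced kinase that raises sodium transport, went from 12.1, 12.8 and 12.3 CPM with vehicle to 240.5, 264 and 259.8 with T3, a log2 fold change of 4.36 (SE 0.169, edgeR adjusted p = 4.04e-07) and of 4.38 over 11 libraries. In EV cells it went from 26.1, 29.8 and 28.5 to 78.1, 84.7 and 65.8 CPM, a rise of 1.44 (SE 0.15, edgeR adjusted p = 0.00272), and the responses differed by 2.92 (SE 0.213, edgeR adjusted p = 0.00017) and by 2.94 over 11 libraries. That difference holds a lower start as well as a higher end. The log2 difference of SGK1 between TRB and EV cells was -1.18 with vehicle (edgeR adjusted p = 0.0462) and 1.74 with T3 (adjusted p = 0.000156), over 12 libraries. TMX4, a reticulum thioredoxin-like membrane protein, went from 19.8, 26.8 and 26.4 CPM to 65.7, 148 and 67.3 in TRB cells, a rise of 1.94 (edgeR adjusted p = 0.00212), and of 1.49 over 11 libraries. In EV cells it was at 24.1, 31.4 and 27.8 CPM with vehicle and 27.2, 27.3 and 21.3 with T3. C4orf3, whose small protein inhibits SERCA, rose by 0.96 (edgeR adjusted p = 0.0465), and by 0.68 over 11 libraries (adjusted p = 0.0252). The call over 12 libraries was lost under 10 of 25 alternatives, with an adjusted p of up to 0.166. NPTN, a subunit partner of the PMCA pumps, rose as well, by 0.53 over 11 libraries (edgeR adjusted p = 0.0145).

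Of 30 tested genes of calcium stores and entry, 7 rose and 1 fell with T3 in TRB cells over 12 libraries, with a median log2 fold change of 0.40. Over 11 libraries 13 rose and 1 fell. These are 26.7% and 46.7% of the list, beside 14.7% and 33.3% of all genes. Among those that rose were genes of the reticulum lumen, the compartment that SERCA2 fills. HSPA5, the calcium-binding chaperone BiP, went from 486, 441 and 430.4 CPM to 980.4, 1972 and 1014, a rise of 1.55 (SE 0.249, edgeR adjusted p = 0.00199) and of 1.19 over 11 libraries (adjusted p = 8.59e-07). CALR, the storage protein calreticulin, went from 371, 352 and 353 CPM to 1168, 692 and 1257, a rise of 1.53 (SE 0.211, edgeR adjusted p = 0.000716) and of 1.81 over 11 libraries (adjusted p = 5.15e-08). PDIA3, a disulphide isomerase that works with calreticulin, rose by 1.43 (SE 0.238, edgeR adjusted p = 0.00252) and by 1.12 over 11 libraries (adjusted p = 1.76e-05). Fitted on the TRB groups alone, HSPA5 and PDIA3 missed the threshold, at an edgeR adjusted p of 0.0538 and 0.0533. In EV cells 0 of the 30 passed in edgeR over 12 libraries, with 2 at an unadjusted p under 0.05, and 4 rose over 11, 13.3% of the list beside 7.33% of all genes.

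Of 30 tested sodium and potassium movers, 4 rose and 2 fell with T3 in TRB cells over 12 libraries, and 8 rose and 9 fell over 11. These are 20% and 56.7% of the list, beside 14.7% and 33.3% of all genes. SLC4A4, a sodium bicarbonate cotransporter, went from 24.6, 27.5 and 28.8 CPM to 248, 489 and 218, a rise of 3.56 (SE 0.302, edgeR adjusted p = 3.18e-05) and of 3.16 over 11 libraries (adjusted p = 4.92e-09). SCNN1A, the alpha subunit of the epithelial sodium channel, through which sodium enters before the pump expels it, went from 43, 42.7 and 39.8 CPM to 558, 141 and 595, a rise of 3.37 (SE 0.44, edgeR adjusted p = 0.00053) and of 3.83 over 11 libraries (adjusted p = 4.09e-10). SLC6A9, a sodium-coupled glycine carrier, went from 26.6, 28.4 and 24.8 CPM to 3.15, 0 and 2.62 and fell by 3.67 (edgeR adjusted p = 0.00274), and fell by 3.13 over 11 libraries (adjusted p = 3.81e-07). It missed the threshold in the TRB groups alone (edgeR adjusted p = 0.0979). The T3 responses of TRB and EV cells differed by 3.24 for SLC4A4 (edgeR adjusted p = 0.00263) and by 1.90 for SLC1A1, a sodium-coupled glutamate carrier (adjusted p = 0.0156), and over 11 libraries by 2.83 (adjusted p = 1.69e-06) and 1.59 (adjusted p = 7.36e-05). Without TRB vehicle replicate 3 the SLC1A1 difference missed the threshold (edgeR adjusted p = 0.0504). In EV cells 0 of the 30 passed in edgeR over 12 libraries, with 4 at an unadjusted p under 0.05, and 4 rose and 5 fell over 11, 30% of the list beside 7.33% of all genes. SCNN1A went from 64.5, 56.1 and 63.5 CPM with vehicle to 218, 196 and 258 with T3 in EV cells, without overlap. Its log2 fold change there was 1.87 over 12 libraries (SE 0.416, edgeR adjusted p = 0.146). With T3 the TRB and EV libraries overlapped for SCNN1A only through replicate 2 of TRB, at 141 CPM. The remaining TRB libraries, at 558 and 595 CPM, lay above the EV libraries at 196 to 258. The difference between vectors with T3 over 12 libraries did not pass (0.95, edgeR adjusted p = 0.178).

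Likeness between genes was described by Pearson's r of log2 CPM over the 11 libraries, which share depth differences and the GC trend, and carries no test. ATP1B1 and ATP2A2 had r of 0.94 with each other, ATP2A2 and ATP2B4 0.88, and ATP2B1 and ATP2C1 0.88. ATP2A2 and ATP2B1 had r of -0.73. ATP1B3 had no r above 0.47 with another of the 7. Among 10094 genes the nearest to ATP1B1 was MMD (0.991), to ATP2A2 TMEM50B (0.995) followed by ANO1 (0.992), to ATP2B1 WDR36 (0.993), to ATP2B4 NFATC2 (0.971), to ATP2A3 TYSND1 (0.982), to ATP2C1 MIPOL1 (0.969) and to ATP1B3 UIMC1 (0.947).

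Some marker lists of cell types moved with T3 in TRB cells beside the pump genes. The summed level of the 4 mesenchymal-like markers went from 10.3 to 11.3 CPM with vehicle to 153 to 306 with T3, and in EV cells from 15.4 to 18.3 CPM to 66.8 to 75.2. FN1 carried this sum, CDH2 being at 0 and VIM not above 18 counts. The 9 thyroid markers summed in EV cells to 9.64 to 10.7 CPM with vehicle and 7.25 to 9.36 with T3. In TRB cells they summed to 9.4 to 13.9 CPM with vehicle and 4.32 to 6.75 with T3. The 5 fibroblast markers, of which 4 did not exceed 3 counts in any library and COL1A1 carried the sum, went from 25.4 to 27.8 CPM to 1.44 to 14.9. The 5 epithelial markers overlapped, at 3807 to 3884 CPM with vehicle and 2028 to 3884 with T3. The 4 leukocyte markers summed to 804 to 982 CPM with vehicle and 778 to 1589 with T3, nearly all of it LYZ, and also overlapped. The 4 endothelial markers did not exceed 3 counts each, and the 4 muscle markers summed to 0.18 to 1.77 CPM over all libraries. The part of these markers in the pump results was not tested, and in bulk RNA fewer cells of a type and less RNA per cell cannot be told apart.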

How the data were processed

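Total RNA of 12 SW1736 libraries was sequenced. The authors deposited 1 file of raw counts per library, with 56832 gene symbols in each. The submitters' processing notes name CASAVA 1.7, STAR 2.7, HTSeq 0.10, DESeq2 and the build hg38, and the counting options and strand setting are not given in the sources used here. Lines for reads of no gene entered neither library sizes nor tests. Not unique alignments made up 19.03% to 91.95% of everything counted in a file and reads outside genes 2.14% to 24.37%. In EV cells not unique alignments were 66.32%, 33.08% and 37.86% with vehicle and 77.71%, 69.6% and 91.95% with T3. In TRB cells they were 66.88%, 43.68% and 46.38% with vehicle and 58.89%, 19.03% and 66.62% with T3. TRB with T3 replicate 2 held the lowest share of not unique alignments and the highest of reads outside genes. The part of these shares in the results was not tested. Groups and replicate numbers came from the sample labels. A table of normalized values was not used.

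The analysis used edgeR 4.0.16 in R 4.3.3. Low genes were removed with filterByExpr (minimum count 10, minimum total 15), libraries were scaled by TMM, and edgeR's quasi-likelihood model with 4 group coefficients was fitted to all 12 libraries, or to 11 without TRB with T3 replicate 2. The 6 contrasts were tested two-sided with Benjamini-Hochberg adjustment over all genes at 0.05. Standard errors were derived from the log2 fold change and its F statistic. CPM are counts scaled to 1000000 per library after TMM.

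Alternatives were DESeq2 1.42.0, other scalings, filters, a prior count of 2, a replicate block, the compared groups alone and leaving out each library. GC offsets, a further alternative, came from a spline with 5 degrees of freedom on median transcript GC content (GENCODE release 29 by symbol). The procedure was checked on simulated counts that held no GC trend and no outlying library.

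Named were the 7 pump genes, THRB and KLF9 as checks, the tested pump partners, and up to 3 called genes of each other list with the largest log2 fold change and a mean log2 CPM of at least 3. NPTN was named after its values were seen. Likeness used log2 CPM with a prior count of 2. The members and lists were chosen with earlier results of these data known. Some genes of these lists are not reported here.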

Additional observations from a re-analysis of the deposited data

Results flagged for a closer look

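The T3 response of ATP2A2 differed between TRB and EV cells by a test of the difference itself, at 1.04 on the log2 scale over 12 libraries (edgeR adjusted p = 0.0132) and 1.07 over 11 (adjusted p = 0.000141). All 3 TRB libraries with T3 lay above their vehicle libraries, as did all 3 EV libraries. The response of ATP1B1 differed by 1.09 over 11 libraries (edgeR adjusted p = 0.00446), with both remaining TRB libraries with T3 above vehicle and overlapping groups in EV cells.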

How the results depend on the processing

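The 7 results of single pump genes past the threshold, out of 42, were refitted under 174 alternatives, and 160 kept the call in the same direction. The losses for ATP1B1 and ATP2A2 stand beside those results. Alone, the compared groups called 1 of the 7 genes for T3 in TRB cells, 1 between vectors with vehicle, 0 between vectors with T3 and 1 for T3-treated TRB against vehicle-treated EV cells. Of all genes these fits called 634 of 14033, 1563 of 14008, 32 of 13292 and 385 of 13715, and they have fewer libraries to estimate the spread. With no count filter 0 were called for the difference of responses and ATP2C1 in T3-treated TRB against vehicle-treated EV cells was -0.02. DESeq2 called 1 for T3 in EV cells and 2 for the difference of responses. ATP2A3 with T3 in EV cells was 0.03 in DESeq2, with RLE factors, with upper-quartile factors and with at least 10 counts in every library, and 0.02 with total counts. ATP1B3 between vectors with vehicle was 0.01 with upper-quartile factors and with that filter, and 0.03 with total counts. Scaling by total counts shifted the median log2 fold change of all genes to -0.14 for T3 in TRB cells, -0.11 between vectors with T3 and -0.17 for the difference of responses. ATP2B1 and ATP2C1 with T3 in TRB cells were then at that shift or above it, at -0.14 and -0.06, and ATP2C1 was -0.10 in T3-treated TRB against vehicle-treated EV cells.

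With GC offsets over 12 libraries 5 of the 7 were called for T3 in TRB cells, 4 for T3-treated TRB against vehicle-treated EV cells and 3 for the difference of responses, beside 5034, 4424 and 2288 of 12130 genes. Between vectors with T3 they called 3, ATP2B1 among them, beside 3415. Values that turned were, for T3 in TRB cells, ATP2B1 (-0.59) and ATP2C1 (-0.32). For T3 in EV cells they were ATP1B3 (0.14) and ATP2C1 (0.02), between vectors with vehicle ATP1B3 (0.17) and ATP2C1 (0.13), and between vectors with T3 ATP2B1 (-0.46) and ATP2C1 (-0.21). For T3-treated TRB against vehicle-treated EV cells ATP2C1 was -0.20, and for the difference of responses ATP1B3 was -0.09, ATP2B1 -0.44 and ATP2C1 -0.34. Without TRB with T3 replicate 2 the counts with GC offsets were 5 for T3 in TRB cells, 2 for T3 in EV cells, 4 between vectors with T3, 5 for T3-treated TRB against vehicle-treated EV cells and 3 for the difference of responses, beside 6810, 2192, 4971, 6424 and 4141 of 12306 genes. The values that turned were then -0.68 for ATP2B1 and -0.22 for ATP2C1 with T3 in TRB cells, 0.09 for ATP1B3 with T3 in EV cells, and 0.15 for ATP1B3 and 0.12 for ATP2C1 between vectors with vehicle. Between vectors with T3 they were -0.54 for ATP2B1 and -0.10 for ATP2C1, and -0.10 for ATP2C1 against EV with vehicle. For the difference of responses ATP1B3 was -0.09, ATP2B1 -0.52 and ATP2C1 -0.22. The cause was not tested for any value that turned.

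Leaving out 1 library at a time, the count of pump genes called ranged from 2 to 4 for T3 in TRB cells, 1 to 3 between vectors with T3, 2 to 4 for T3-treated TRB against vehicle-treated EV cells and 0 to 2 for the difference of responses. ATP2B1 ranged from -0.66 to 0.40 for T3 in TRB cells, -0.40 to 0.64 between vectors with T3, -0.94 to 0.12 for T3-treated TRB against vehicle-treated EV cells and -0.12 to 0.91 for the difference of responses. ATP2C1 ranged from -0.18 to 0.30 for T3 in TRB cells and from -0.27 to 0.24 for T3-treated TRB against vehicle-treated EV cells. The lower end of each of these ranges was the fit without TRB with T3 replicate 2. ATP1B3 between vectors with vehicle ranged from -0.09 to 0.06, and ATP2A3 with T3 in EV cells from -0.19 to 0.29. Over all genes the count called ranged across alternatives from 634 to 6810 for T3 in TRB cells, 10 to 2192 in EV cells, 1 to 1563 between vectors with vehicle, 32 to 4971 between vectors with T3, 385 to 6424 for T3-treated TRB against vehicle-treated EV cells and 136 to 4141 for the difference of responses. At the shallowest library, 3819306 counts, ATP1B3 rested on 105 counts and ATP2A3 on 153.

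The labels do not say that a replicate number marks a shared culture or day, and the numbers were not taken as pairs because not every pair with the same number had a correlation of deviations over 0.1. Over 12 libraries 12 of 18 such pairs did (range -0.19 to 0.73), beside 9 of 36 pairs with different numbers, and over 11 libraries 6 of 15 beside 7 of 30, so a partial sharing by number was not settled. Over 12 libraries every pair of replicate 2 libraries did, at 0.12 to 0.73. Pairs of replicate 1 ranged from -0.1 to 0.28 and pairs of replicate 3 from -0.19 to 0.64. With the replicate block ATP2B1 with T3 in TRB cells was -0.08 over 12 libraries. With the replicate block over 11 libraries 5 of the 7 genes were called for T3 in TRB cells, 1 for T3 in EV cells, 4 for T3-treated TRB against vehicle-treated EV cells and 2 for the difference of responses, beside 5223, 1965, 4710 and 3274 of 14825 genes. ATP2A3 with T3 in TRB cells (-0.66, edgeR adjusted p = 0.0183) and ATP2B1 with T3 in EV cells (-0.56, adjusted p = 0.027) passed there and not in the same libraries without the block. ATP2B1 was then -0.56 and ATP2C1 -0.14 for T3 in TRB cells, ATP2B1 was -0.27 between vectors with T3, and ATP1B3 was -0.01 and ATP2C1 -0.24 for T3-treated TRB against vehicle-treated EV cells. With GC offsets and the replicate block together the counts were 5 for T3 in TRB cells, 4 for T3-treated TRB against vehicle-treated EV cells and 3 for the difference of responses, beside 5123, 4439 and 2427 of 12130 genes. For T3 in TRB cells ATP2B1 was then -0.59 and ATP2C1 -0.33. For T3 in EV cells ATP1B3 was 0.12 and ATP2C1 0.01, and between vectors with vehicle 0.15 and 0.12. Between vectors with T3 ATP2B1 was -0.46 and ATP2C1 -0.22, and ATP2C1 was -0.21 against EV with vehicle. For the difference of responses ATP1B3 was -0.07, ATP2B1 -0.44, ATP2B4 -0.01 and ATP2C1 -0.34.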
